A study of Mus musculus with 4 samples.

Results

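The platelet-derived growth factor (PDGF) family was followed in terminal end buds, the growing tips of the pubertal mammary ducts, with and without deletion of the transcription factor gene Ovol2. The members were taken by family name, and the choice was made with earlier results of these data known. They are the receptor genes Pdgfra and Pdgfrb, the receptor-like gene Pdgfrl, and the ligand genes Pdgfa, Pdgfb, Pdgfc and Pdgfd. All 7 were found, each through 1 probe set that carries its symbol alone, among 19938 genes on the array. End buds dissected out of the gland of female C57/BL6 mice were profiled on 4 Affymetrix arrays, 2 control and 2 knockout. Control mice were labelled Ovol2flox/+, and the protocol allows that some of them also carried K14-Cre. Knockout mice were Ovol2flox/-;K14-Cre, with 1 allele deleted in every cell and the other only where the keratin 14 promoter, a promoter of basal epithelial and skin cells, had driven Cre. Both groups thus carried 1 floxed allele, and the controls a wild-type allele beside it. Every array had its own pool, of 2 mice for a control and 3 mice for a knockout, so the number of mice pooled cannot be told apart from the genotype. The labels give an age of 4.5 weeks and the series text 24 to 25 days, and it was chosen there to catch changes that come before the buds differ in shape.

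PDGFs are dimeric growth factors that bind receptor tyrosine kinases at the surface of mesenchymal cells, where they drive division, migration and survival. PDGF-A and PDGF-C signal mainly through receptor alpha, PDGF-D mainly through receptor beta, and PDGF-B binds both. In many organs the ligands come from an epithelium or endothelium and the receptors sit on the neighbouring fibroblasts, pericytes and smooth muscle. Ovol2 encodes a zinc finger repressor that keeps epithelial cells from taking on mesenchymal gene expression.

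The bases before the transcription start of Pdgfra, Pdgfc and Pdgfa, among the members that moved, are shown for orientation. RefSeq gives them on GRCm38.p6, and they are shown because the deleted gene encodes a DNA-binding repressor. No promoter window of Pdgfrb, Pdgfrl or Pdgfb was searched, so nothing is said here about motifs in those genes. The windows used were those of 4 of the 7 members (Pdgfra, Pdgfa with 2 starts, Pdgfc and Pdgfd). Each was searched on both strands for the motif CCGTTA, a core recognised by OVOL proteins. They were also searched for the E-box CACCTG, bound by ZEB and SNAIL proteins. No 2 matches overlapped in these windows. The 250 bases up to the start are printed 5' to 3' on the strand of the gene, with motif matches in capitals.
Pdgfra (chr5:75152001-75152250, + strand): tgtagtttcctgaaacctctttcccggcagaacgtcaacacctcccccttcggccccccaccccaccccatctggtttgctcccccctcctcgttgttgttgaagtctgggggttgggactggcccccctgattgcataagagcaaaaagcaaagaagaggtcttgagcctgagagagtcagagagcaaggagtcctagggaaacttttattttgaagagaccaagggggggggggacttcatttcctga
Pdgfc (chr3:81036166-81036415, + strand): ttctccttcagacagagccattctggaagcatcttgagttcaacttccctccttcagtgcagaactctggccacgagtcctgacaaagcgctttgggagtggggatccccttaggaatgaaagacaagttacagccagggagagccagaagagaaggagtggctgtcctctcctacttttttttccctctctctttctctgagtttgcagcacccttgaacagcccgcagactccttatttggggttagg
Pdgfa (chr5:138994282-138994531, - strand): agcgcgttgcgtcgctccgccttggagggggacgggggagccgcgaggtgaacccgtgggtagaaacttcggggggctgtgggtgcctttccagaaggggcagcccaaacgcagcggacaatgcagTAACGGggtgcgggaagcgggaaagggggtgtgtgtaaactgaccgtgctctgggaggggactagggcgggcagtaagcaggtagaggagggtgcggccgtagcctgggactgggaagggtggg
The Pdgfra window, of the member that rose most, held neither motif. The Pdgfc window held neither motif either, nor did that of Pdgfd or that of the other Pdgfa start. The Pdgfa window printed here held 1 OVOL core, read on the opposite strand, 124 to 119 bases before the start. Over all 32851 RefSeq promoter windows of 250 bases, 2.18% held the OVOL core and 17.2% the E-box. A match describes the letters and is not evidence of binding, and bases outside these windows were not searched.

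The 4 arrays had median linear signals between 252 and 272, and the number of arrays limits the precision. Ovol2 itself read 250.2 and 291 on the control arrays and 211 and 204 on the knockout arrays. It was lower on both knockout arrays and did not pass the test (log2 difference -0.39 ± 0.16, adjusted p = 0.17, limma). Where its probes lie relative to the deleted part is not known here, so the value is a weak check of the labels. The tissue label was matched by its keratins: on the log2 scale Krt8 and Krt18, of the luminal layer, lay between 13.34 and 13.65 on every array, and Krt5 and Krt14, of the basal layer, between 11.07 and 11.95. Over all 11963 genes bright enough to be tested, 10.7% passed an adjusted p of 0.05, 6.29% as higher in the knockout and 4.45% as lower, and the median log2 difference was -0.022.

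Both signalling receptors rose in the knockout, and among the 7 genes they had the largest differences. Of the 6 members that could be tested, 4 rose, 1 fell and 1 did not pass, beside the 10.7% of all tested genes called in either direction. The median log2 difference of these 6 was 0.41. On all 7 probe sets the knockout arrays lay entirely on 1 side of the control arrays, above them for 5 genes and below them for 2. Over all 19938 genes, tested or not, this was so for 49.6%, with 20.1% above and 29.5% below. The ± values give the SE of a log2 difference in limma (n = 2 arrays per group), adjusted p-values are over all tested genes, and folds are on the log2(signal + 16) scale after normalization. In dissected tissue, a change in the number of cells that express a gene and a change in RNA per cell cannot be told apart.

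**Figure D1:**
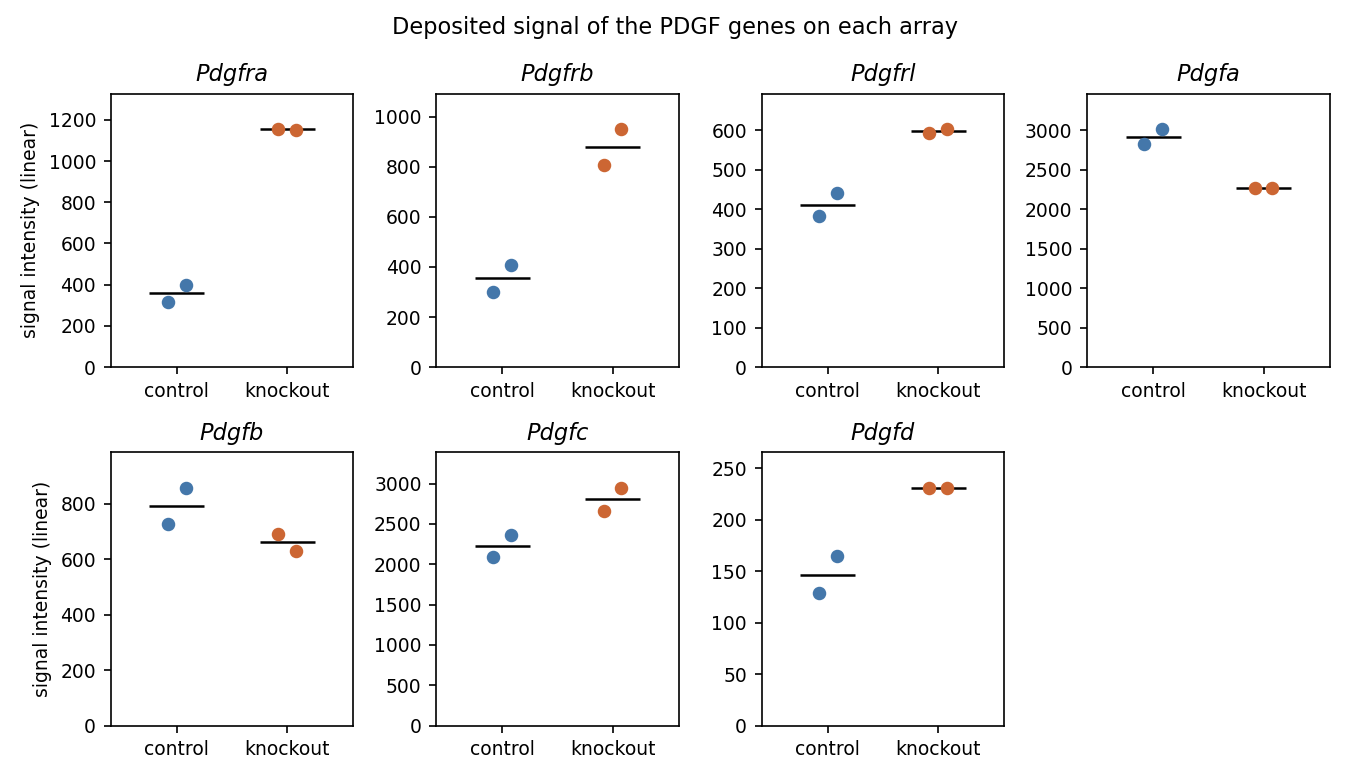
Deposited linear signal intensity (y axis, from 0, with its own scale in each panel) of each PDGF gene on the 2 control and 2 knockout arrays. Points are single arrays and bars are group means. The groups do not overlap in any panel, with the knockouts above the controls for Pdgfra, Pdgfrb, Pdgfrl, Pdgfc and Pdgfd and below them for Pdgfa and Pdgfb.

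Pdgfra encodes receptor alpha, which binds PDGF-A, PDGF-B and PDGF-C and marks fibroblasts in many tissues. Its deposited signal was 316 and 399.7 on the control arrays and 1154 and 1152 on the knockout arrays. The knockout arrays nearly coincided, and the controls were above the filter level for dim genes, a signal of about 235, so the gene did not enter the test through its knockout level alone. The log2 difference was 1.62 ± 0.11 (95% CI 1.37 to 1.88), a 3.08-fold rise (adjusted p = 0.000124). It ranked 11th of the 11963 tested genes by log2 difference. The gap of 1.41 between the nearest control and knockout arrays was larger than the gap of 0.35 between the controls. The call held in all 14 alternative settings, with log2 differences from 1.45 to 1.80.

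Pdgfrb encodes receptor beta, the receptor of PDGF-B and PDGF-D, known from pericytes, vascular smooth muscle and fibroblasts. Its signal was 302 and 409 on the control arrays and 808 and 949.9 on the knockout arrays. Both knockout arrays were above both controls, with somewhat more spread within each group than for Pdgfra. The log2 difference was 1.25 ± 0.15 (95% CI 0.91 to 1.59), a 2.38-fold rise (adjusted p = 0.00142), at rank 37. The call held in all 14 alternatives, with log2 differences from 1.03 to 1.47. The intervals of the 2 receptors overlap, and whether they rose by different amounts was not tested. With 2 arrays against 2, no exact permutation test of a single value can give a p below 0.333.

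Pdgfrl encodes a secreted protein that resembles the extracellular part of the receptors and has no kinase. Its signal was 383 and 440.4 on the control arrays and 594 and 603 on the knockout arrays. All knockout values were higher, and the log2 difference was 0.48 ± 0.11 (95% CI 0.24 to 0.72), a 1.40-fold rise (adjusted p = 0.0201). The call was lost without control replicate 1, at 0.39 (adjusted p = 0.163), and with a variance prior that ignores the mean (adjusted p = 0.0676).

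The 4 ligands did not move together. Pdgfa fell, Pdgfc rose, Pdgfb was lower without passing the test, and Pdgfd was higher but too dim to be tested. Pdgfa and Pdgfc encode ligands of the same receptor alpha, and their 95% intervals lay on opposite sides of 0. The difference between them was not tested.

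Pdgfa encodes PDGF-A, a ligand that epithelia of several organs send to PDGFRA-positive mesenchyme. Its signal was 2819 and 3012 on the control arrays and 2271 and 2272 on the knockout arrays. The knockout arrays were nearly equal and both lay below the controls. The log2 difference was -0.37 ± 0.05 (95% CI -0.49 to -0.24), which is 1.29-fold lower (adjusted p = 0.00378). This was the member with the smallest SE, and leaving out any 1 array gave log2 differences from -0.41 to -0.33, each past the threshold. It did not pass without the mean-variance trend (adjusted p = 0.0679).

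Pdgfc encodes PDGF-C, which is secreted as a latent protein and must be cut before it can bind receptor alpha. Its signal was 2089 and 2359 on the control arrays and 2660.2 and 2949 on the knockout arrays. The groups did not overlap, but the gap of 0.17 on the log2 scale between their nearest arrays was about the size of the gaps within the groups, 0.14 and 0.18. The log2 difference was 0.33 ± 0.07 (95% CI 0.16 to 0.50), a 1.26-fold rise (adjusted p = 0.0215). It was lost without control replicate 1 (0.26, adjusted p = 0.106), with median centring (adjusted p = 0.117) and without the trend (adjusted p = 0.131).

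Pdgfb encodes PDGF-B, made by endothelium and platelets and known for recruiting pericytes to vessels. Its signal was 725 and 857 on the control arrays and 692 and 628 on the knockout arrays. Both knockout arrays were lower, and control replicate 1 lay near knockout replicate 1. The log2 difference was -0.29 ± 0.09 (95% CI -0.49 to -0.09) and did not pass (adjusted p = 0.0672). It passed in 3 of 14 alternatives, among them a robust prior (adjusted p = 0.0396) and leaving out knockout replicate 1 (-0.32, adjusted p = 0.013). On the same arrays 5 of 12 endothelial markers rose, and 11 were higher at an unadjusted p under 0.05 in limma. The part of endothelial content in the Pdgfb value was not tested.

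Pdgfd encodes PDGF-D, a latent ligand of receptor beta. Its signal was 129 and 165 on the control arrays and 231 and 231 on the knockout arrays. All 4 values lay under the filter level, where signal cannot be told from background with these files, so Pdgfd entered no test. Its log2 difference was 0.59, and in the alternative without a filter, in which 6.06% of 19938 genes passed, it did not (SE 0.16, adjusted p = 0.0581).

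**Figure D2:**
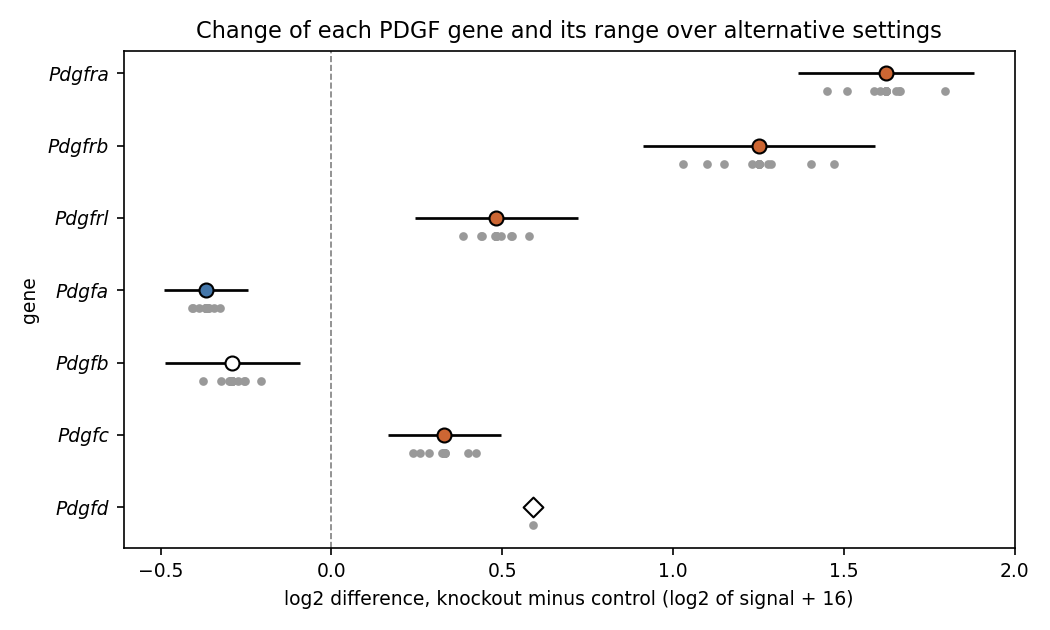
Log2 difference, knockout minus control (x axis, log2 of signal + 16), for each PDGF gene (y axis). Filled circles passed an adjusted p of 0.05 (orange higher, blue lower), the open circle did not, and the diamond was not tested. Black lines are 95% confidence intervals and grey points the same value under each alternative setting. No grey point lies across 0 from its gene, and both receptors lie to the right of all other members.

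Genes that act on the ligands outside the cell went both ways. The list held 8 genes, all tested, of which 3 rose, 1 fell and 4 did not pass, with a median log2 difference of 0.25. Plat encodes tissue plasminogen activator, a protease that activates PDGF-C. On the log2 scale it read 8.98 and 8.72 in control and 9.51 and 9.96 in knockout buds, a rise of 0.88 ± 0.14 (adjusted p = 0.00573). Lrp1, an endocytic receptor that associates with receptor beta, rose by 0.58 ± 0.08 (adjusted p = 0.00324). Sparc, a matrix protein that binds PDGF-B, rose by 0.36 ± 0.06 (adjusted p = 0.00732). Pcsk6, a proprotein convertase of the furin family, fell by 0.54 ± 0.11 on the log2 scale (adjusted p = 0.0159).

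The members of that list that did not pass include known activators of PDGF ligands. Furin, the convertase that matures PDGF-A and PDGF-B, had a log2 difference of -0.01 ± 0.06. Plau and St14, proteases known in human cells to release active PDGF-D, had 0.16 ± 0.09 and -0.04 ± 0.05. The co-receptor gene Nrp1 had 0.34 ± 0.10 (adjusted p = 0.0549). These genes were chosen after their values were seen. The fall of Pcsk6 was lost without control replicate 1.

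The proteins that carry the signal inside the cell showed no called change. Of 28 listed adaptors, kinases and lipid kinase subunits, 22 were measured and tested, and 0 passed in either direction in limma. At an unadjusted p under 0.05 there was 1 higher and 1 lower. Their log2 differences ran from -0.15 for the phosphoinositide kinase gene Pik3cb to 0.25 for the Src family kinase gene Fyn, with a median of -0.006. For the adaptor gene Shc1 the value was 0.12 ± 0.06 and for the phospholipase gene Plcg1 it was -0.02 ± 0.07 (these 4 were chosen after their values were seen). Of 9 listed brakes on the receptors, such as the ubiquitin ligase gene Cbl and the phosphatase gene Ptprj, 8 were tested and 0 passed in limma, with 1 higher at an unadjusted p under 0.05. In the alternatives, between 0 and 1 gene of either list passed in each direction. The range of the brakes was -0.15 to 0.18.

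Early response genes, which growth factors including PDGF switch on within an hour in cultured fibroblasts and which other stimuli and tissue handling also induce, were partly higher. Of 17 tested members 6 rose and 11 did not pass, with a median log2 difference of 0.18. Fosb, an AP-1 subunit gene, rose by 0.54 ± 0.12 on the log2 scale, Klf10 by 0.39 ± 0.07, the phosphatase gene Dusp1 by 0.35 ± 0.06 and Ier2 by 0.30 ± 0.07. The count was 9 with the values as deposited, 4 with median centring and with a robust prior, and 0 without the trend. It also changed when 1 array was left out, as did the count over all genes, and the cause was not tested.

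**Figure D3:**
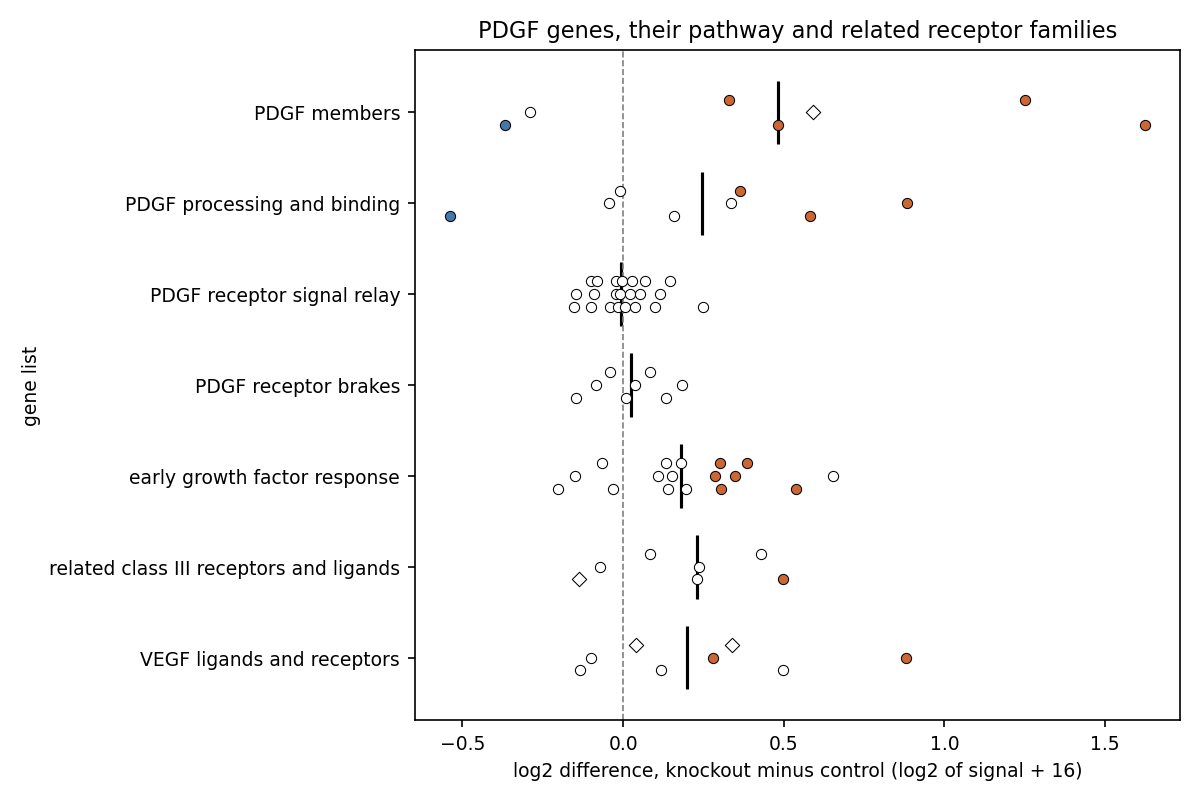
Log2 difference, knockout minus control (x axis, log2 of signal + 16), of each gene in the PDGF family, its pathway lists and 2 related families (y axis). Orange circles rose, blue circles fell, open circles did not pass and diamonds were under the filter. The vertical bar is the list median, which is 0.48 over all 7 PDGF genes and -0.006 for the signal relay list.

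The relatives closest to the PDGF receptors are the class III receptor tyrosine kinases Kit, Csf1r and Flt3. Of 6 tested receptors and ligands of this class 1 rose: Kitl, the ligand of Kit, by 0.50 ± 0.07 on the log2 scale (adjusted p = 0.00255). The receptors Kit and Csf1r did not pass, at 0.09 ± 0.08 and 0.24 ± 0.14 (chosen after their values were seen). Of 6 tested VEGF ligands and receptors, whose ligands share the cystine knot fold of the PDGFs, 2 rose. Kdr rose by 0.88 ± 0.17 and the placental growth factor gene Pgf by 0.28 ± 0.08 (adjusted p = 0.0461). Both Kdr control arrays (7.57 and 7.82 on the log2 scale) lay under the filter level, so Kdr was tested only through its knockout values. Without control replicate 1 neither passed, and Pgf passed in 7 of its 14 alternatives. Without the mean-variance trend 0 genes of the pathway and related lists passed.

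Most fibroblast markers rose on the same arrays. Of 15 tested fibroblast markers, with the PDGF genes left out of the list, 13 rose and 2 did not pass, with a median log2 difference of 1.07, beside 1.62 for Pdgfra and 1.25 for Pdgfrb. The summed signal of all 16 fibroblast markers was 13572 to 14359 on the control arrays and 28595 to 34575 on the knockout arrays. Lama2, a laminin gene, and Lum, a matrix proteoglycan gene, had log2 differences of 1.94 ± 0.18 and 1.94 ± 0.09. Both Lama2 control arrays, at 7.25 and 7.85 on the log2 scale, lay under the filter level of 7.97, so Lama2 was tested only through its knockout values. The periostin gene Postn had 1.48 ± 0.06, the collagen gene Col6a1 1.42 ± 0.17, the collagen gene Col1a1 1.07 ± 0.12 and the decorin gene Dcn 1.03 ± 0.08. The 2 that did not pass were Col5a1 at 0.43 ± 0.14 and Fbln1 at -0.18 ± 0.08. Both Fbln1 knockout arrays lay below the controls. No fibroblast marker was listed at 0 on any array. Fap, the dimmest, lay under the filter. A robust prior ended the calls of Col1a1 and Col6a1, and the fit without the trend that of Col6a1. The part of fibroblast content in the receptor values was not tested.

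Most pericyte markers did not pass the test. Of 8 tested markers 2 rose and 6 did not pass, and the other 6 on the array lay under the filter. At an unadjusted p under 0.05 in limma, 5 were higher and 0 lower. For 12 of the 14 both knockout arrays lay above both controls, beside 20.1% of all genes, and for 1 below. Over all 14 the median log2 difference was 0.28, and the summed signal was 7087 to 7745 on the control arrays and 8900 to 9443 on the knockout arrays. Gucy1a1, a guanylate cyclase subunit gene, rose by 1.10 ± 0.20 and Rgs5, a defining pericyte gene, by 0.87 ± 0.14. Both Gucy1a1 control arrays (7.35 and 7.90 on the log2 scale) lay under the filter level, so it was tested only through its knockout values. Cspg4, which encodes the proteoglycan NG2, lay under the filter with a log2 difference of 0.11. The part of pericytes in the Pdgfrb value was not tested.

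Of 5 contractile genes shared by smooth muscle and myoepithelium all 5 rose, with a median of 0.72. Mylk, Myh11, Cnn1 and Tagln rose by 0.74 ± 0.13, 0.74 ± 0.12, 0.72 ± 0.10 and 0.62 ± 0.06. Of 12 endothelial markers 5 rose and 7 did not pass, with a median of 0.56. At an unadjusted p under 0.05 in limma, 11 were higher. Kdr, counted among the 5, was tested only through its knockout values. The endothelial count was 9 with the values as deposited, 7 with median centring and 4 with a robust prior. Emcn rose by 1.02 ± 0.14 and Cdh5 by 0.72 ± 0.13, whereas Pecam1 did not pass at 0.51 ± 0.16. Among the alternative fits on all 4 arrays, Pecam1 did pass with the values as deposited, with median centring and with the replicate block. The summed signal of the 12 endothelial markers was 5788 to 6709 on the control arrays and 8170 to 9616 on the knockout arrays. Of 6 tested adipocyte markers 5 rose, and over all 11 on the array the median was 0.13. Lpl rose by 0.98 ± 0.13, Cd36 by 0.64 ± 0.09, Fabp4 by 0.58 ± 0.09 and Pparg by 0.43 ± 0.11. Plin1 did not pass, at -0.08 ± 0.15. Adipoq, Plin4, Cidec, Lep and Retn lay under the filter, with log2 differences from -0.06 to 0.13. Of 3 tested progenitor markers Cd34 rose, by 0.47 ± 0.10. Without control replicate 1 the endothelial count was 2 and the adipocyte count 3. Without the trend 1 contractile gene (Tagln), 1 adipocyte marker (Lpl) and 0 pericyte, endothelial or progenitor markers passed. A robust prior ended the calls of Mylk, Myh11, Cnn1 and Cdh5.

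Epithelial marker lists had medians near 0. Of 13 luminal markers 1 rose, Pgr by 0.36 ± 0.08, and 12 did not pass, with a median of 0.011 and a summed signal of 67843 to 70102 on the control arrays and 68855 to 70949 on the knockout arrays. At an unadjusted p under 0.05 in limma, 3 luminal markers were higher and 2 lower. The lower ones were Cldn3 at -0.16 ± 0.06 and Cldn7 at -0.21 ± 0.06. For Epcam the log2 difference was 0.03 ± 0.06. Of 7 basal markers Oxtr rose by 0.94 ± 0.15, Jag2 and Trp63 had log2 differences of -0.37 ± 0.07 and -0.36 ± 0.06 and fell, and 4 did not pass. Among the latter, Krt5 had -0.02 ± 0.11 and Krt14 0.43 ± 0.15 (adjusted p = 0.0993, limma), with both Krt14 knockout arrays above the controls. Among the alternative fits on all 4 arrays, Krt14 passed with the values as deposited, with median centring and with the replicate block. The summed basal signal was 15638 to 16679 on the control arrays and 16277 to 19788 on the knockout arrays. Median centring ended the calls of Jag2 and Trp63, and a robust prior those of Pgr and Oxtr. Without the trend none of these 4 passed, and without control replicate 1 Pgr and Trp63 did not. Pdgfa thus fell on arrays whose luminal markers had a median log2 difference near 0, and the part of epithelial content in its value was not tested. Of 6 tested macrophage markers 1 fell, Lyz2 by 0.96 ± 0.24 on the log2 scale, and 5 did not pass. That call was lost without control replicate 2, with the filter at the 60th percentile, without the trend and with a robust prior. Of 5 platelet markers on the array 1 could be tested, Tubb1, which did not pass (-0.14 ± 0.09, chosen after its value was seen). The median log2 difference of the 5 was -0.135, and Pf4, under the filter, had 0.35. Of 3 tested Schwann cell markers 0 passed in limma, and 1 was lower at an unadjusted p under 0.05. With no filter 1 rose, and 1 fell without knockout replicate 1.

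**Figure D4:**
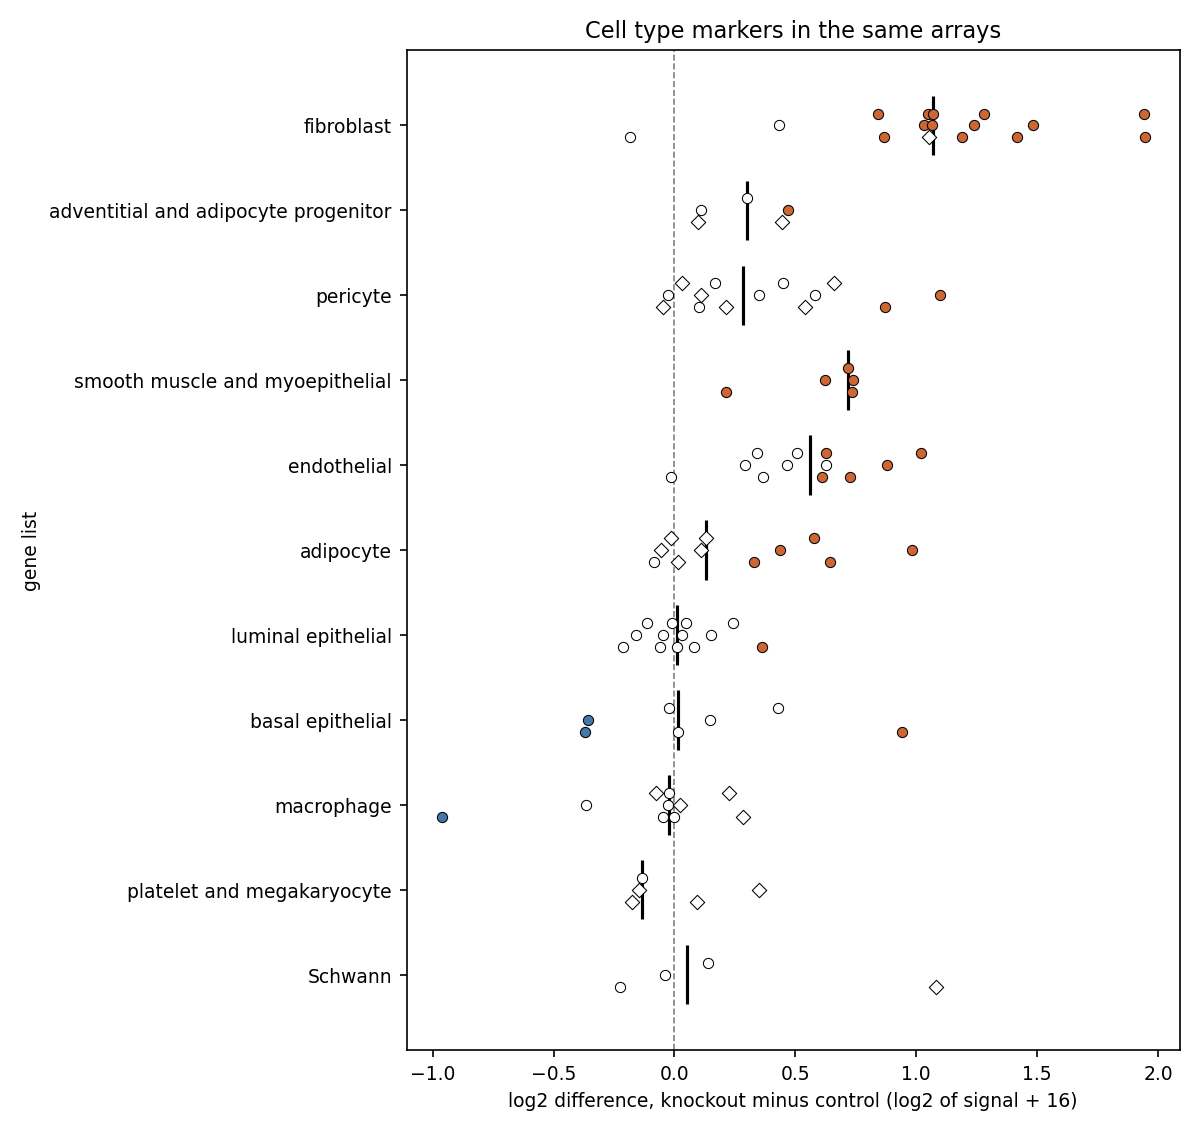
Log2 difference, knockout minus control (x axis, log2 of signal + 16), of the markers of 11 cell types (y axis). Orange circles rose, blue circles fell, open circles did not pass and diamonds were under the filter. The vertical bar is the median over all markers on the array, highest for fibroblasts at 1.07 and 0.011 for luminal epithelium.

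The genes with the pattern most like each member over the 4 arrays were ranked by the root mean square difference of log2 values, each gene centred on its own mean. For Pdgfra these were the angiotensin receptor gene Agtr1a at 0.082, the phosphodiesterase gene Pde7b at 0.093 and the matrix gene Spon1 at 0.099. For Pdgfrb they were the metalloprotease gene Adamts12 at 0.047, the natriuretic peptide receptor gene Npr2 at 0.052 and the cadherin gene Cdh11 at 0.053. Both control arrays lay under the filter level for Pde7b (7.64 and 7.88 on the log2 scale) and for Spon1 (7.62 and 7.91). Pde7b and Spon1 were thus tested only through their knockout values. Agtr1a, the nearest to Pdgfra, read 9.32 and 9.67 in control and 10.88 and 11.11 in knockout buds. The nearest genes to Pdgfrl were Fam214a, Slc5a3 and Kdelr3, at 0.016 to 0.017. Pdgfa was most like the chaperone gene Hsph1 at 0.018, the DNA repair gene Brca1 at 0.020 and the mitotic gene Incenp at 0.022. Pdgfb was most like Vsig2, Zscan22 and Enkd1, and Pdgfc was most like Zdhhc1 at 0.007 and Rbpms and Maml2 at 0.010. With 4 arrays such a likeness is set mainly by the difference between the groups and is a description.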

How the data were processed

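The deposited table held 1 linear signal intensity per probe set and array for 35556 probe sets. The authors made these intensities with Affymetrix Expression Console 1.1.1 and PLIER 2.0, per the submitters' processing notes. Their background correction, normalization and build were not given in the sources used here. Probe sets were named by the platform annotation: 21789 had 1 symbol, 1621 several and 12146 were not listed. Entrez identifiers of 21698 matched a RefSeq table (GRCm38.p6), with 0 symbols changed.

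A gene with several probe sets was represented by the brightest. Values were log2(signal + 16), quantile normalized. Genes under the 40th percentile of the mean (log2 7.97) were left out. Groups were compared with limma 3.58.1 in R 4.3.3 (lmFit, eBayes with trend, two-sided, Benjamini-Hochberg over 11963 genes, threshold 0.05), with 2 residual and 7.58 prior degrees of freedom. The fit was tested on simulated data. With 1 row per probe set (13073 tested), Pdgfra, Pdgfrb, Pdgfrl, Pdgfa and Pdgfc passed and Pdgfb did not (adjusted p = 0.0668).

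Named genes were all members, up to 4 called genes per list with the largest difference, defining cell markers, and the 3 genes most like each tested member. Members and lists were chosen with earlier results of these data known. A listed gene without a probe set of its own symbol was not analysed here. The alternatives were other normalizations, offsets, filters and variance priors, all probe sets averaged, the replicate block, and each array left out.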

Additional observations from a re-analysis of the deposited data

How the results depend on the processing

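The direction of a PDGF gene could turn only where another normalization or offset changed the values. The filters, the variance priors, the probe set average and the replicate block left the differences as in the main fit. Leaving out an array could not turn a sign, because the groups did not overlap. Over the 14 alternatives no PDGF gene changed direction, and the calls of Pdgfra and Pdgfrb held in all of them. Without the mean-variance trend these 2 were the only members called, since Pdgfa (-0.37), Pdgfrl (0.48) and Pdgfc (0.33) no longer passed. Pdgfc was also lost with median centring (0.29). Pdgfb passed with a robust prior and with the replicate block (-0.29 in both). Leaving out 1 array in turn gave 1.45 to 1.80 for Pdgfra, 1.03 to 1.47 for Pdgfrb, 0.39 to 0.58 for Pdgfrl, -0.41 to -0.33 for Pdgfa, 0.24 to 0.42 for Pdgfc and -0.38 to -0.20 for Pdgfb. Pdgfrl and Pdgfc were lost without control replicate 1, and Pdgfb passed without knockout replicate 1. Pdgfrl had no value with the filter at the 60th percentile, and Pdgfd had one only with no filter. The cause of these changes was not tested.

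The count of called genes, 1285, was 753 with median centring, 188 without the trend, 2246 with the replicate block, and 476 to 2347 when 1 array was left out (lowest without control replicate 1, highest without knockout replicate 1). The replicate numbers are not said to pair pools, and deviations of same-numbered arrays correlated with r = -0.196 across genes, so the block is no test of pairing. In 5 fits (values as deposited, median centring, the block, and without either knockout array) the variance was taken as known from the trend. Of the 36 called genes that the naming rule took from the lists, 6 passed in all their alternatives (Lum, Lama2, Postn, Dcn, Lpl and Tagln). Signs turned for Epcam (-0.020 with median centring, -0.041 to 0.10 when 1 array was left out), Krt8 (-0.013 in the values as deposited, -0.061 with median centring) and Krt5 (-0.22 to 0.18 when 1 array was left out). Precision is limited by 2 arrays per group and by signals that cannot be set against a detection level.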
